A study of Danio rerio with 12 samples.

Results

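Myelin and glial genes were followed in whole zebrafish embryos that differed in an activated BRAF transgene and in p53 function. The members were every probe set whose platform symbol was mbpa, mpz, plp1b, gfap, fabp7a or glula. Of these 6 genes, 4 had a probe set under their symbol, with 1 probe set each, among the 15502 probe sets tested. These were mbpa, gfap, fabp7a and glula. No probe set carried the symbol or the Entrez identifier of mpz or plp1b, so no value is given for either. Of the 4 genes, 1 comparison of 1 gene passed the test: glula fell in embryos with the BRAF transgene alone. The call was close to the threshold and held in 2 of 12 fits with 1 array left out. In that comparison 6.41% of all 15502 probe sets passed.

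The data were 12 one-colour Affymetrix arrays of total RNA, 3 for each of 4 genotypes, all at 80 hours post fertilization. Wild-type embryos were of the Tu strain. BRAF embryos carried a stable homozygous transgene that expresses BRAF with the V600E change from the mitf promoter, a promoter used in the pigment cell lineage. The p53 embryos were homozygous for the M214K allele of p53, and BRAF;p53 embryos, also called the combined genotype here, carried both alterations in homozygous form. Embryos came from incrosses of fish of each genotype. The labels name a strain for the wild type only and give no number of embryos or clutches for each RNA. Strain or line and genotype therefore cannot be told apart here. Nothing says that replicates were separate clutches, so the p-values cover the spread between samples alone, and that spread could be technical. The first and second p53 replicates are called 1a and 1b by the submitters and may share a source.

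Myelin is the lipid-rich sheath that oligodendrocytes wrap around axons in the brain and spinal cord and Schwann cells around axons in nerves. mbpa encodes myelin basic protein, which holds the cytoplasmic faces of the sheath together. mpz and plp1b encode adhesion and proteolipid proteins of myelin, and mpz is a gene of central myelin in fish. Radial glia are neural progenitors that also do the work of astrocytes in the zebrafish brain, and Müller glia are their counterpart in the retina. gfap encodes their intermediate filament, fabp7a the brain fatty acid binding protein and glula a glutamine synthetase, which turns the transmitter glutamate into glutamine. Glutamine synthetases are also active outside the nervous system.

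Values were log2 expression values centred on each probe set's own median over the 12 arrays, as held for 4 of the 4 members. A value of 0 is thus the median array, not absence, and the brightness of a probe set is unknown. Levels cannot be compared between genes, and the marker genes could not be checked for presence in these embryos. The number of arrays limits the precision. In whole-embryo RNA, fewer cells of a type and less RNA per cell cannot be told apart. Array medians over all probe sets ran from -0.04 to 0.08. BRAF replicate 1 and p53 replicate 3 stood apart from their own genotypes: BRAF replicate 1 correlated with the others at 0.56 and 0.41, and p53 replicate 3 at 0.47 and 0.48, over all probe sets. Within the remaining pairs of a genotype the correlation was 0.67 to 0.84. The remaining p53 pair was 1a and 1b, so these values do not show that p53 replicate 3 was the odd array.

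The myelin gene mbpa was low on every array of the combined genotype. Its log2 values were -0.49, -0.49 and -0.39 in BRAF;p53 embryos and -0.01, 0.17 and 0.35 in BRAF embryos. In p53 embryos they were 0.01, 0.20 and -0.27, and in wild type 0.26, -0.54 and 0.35. The arrays of the combined genotype lay below all BRAF and all p53 arrays, but wild-type replicate 2 was the lowest of the 12.

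By mean, mbpa ran from 0.17 ± 0.18 in BRAF over 0.02 ± 0.49 in wild type and -0.02 ± 0.24 in p53 to -0.46 ± 0.06 in BRAF;p53 (SD, n = 3). BRAF, wild-type and p53 embryos, neighbours in this order, overlapped in their arrays. The difference of BRAF;p53 from wild type was -0.48 ± 0.21 (SE, limma adjusted p = 0.355), with a 95% interval of -0.94 to -0.02 before adjustment. Against BRAF it was -0.63 ± 0.21 (limma adjusted p = 0.121) and against p53 -0.44 ± 0.21 (limma adjusted p = 0.356). None passed. Without wild-type replicate 2 the difference from wild type was -0.76 (limma adjusted p = 0.0326) and that from BRAF, at -0.63, had a limma adjusted p of 0.0271. For each of these 2 comparisons that was the only call in 12 fits without 1 array. The limma adjusted p reached 0.765 against wild type, without wild-type replicate 1, and 0.299 against BRAF, without BRAF;p53 replicate 1. BRAF differed from wild type by 0.15 and p53 by -0.04 (limma adjusted p = 0.715 and 0.955).

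mbpb, the other myelin basic protein gene, differed from wild type by 0.12 in BRAF, -0.17 in p53 and -0.13 in BRAF;p53 (limma adjusted p = 0.478, 0.444 and 0.67). The mbpb arrays of p53 embryos and those of the combined genotype both lay below those of wild type. Those of the combined genotype overlapped those of BRAF and p53. mbpb was named outside the naming rule, after its values were seen, as was glulb.

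**Figure D1:**
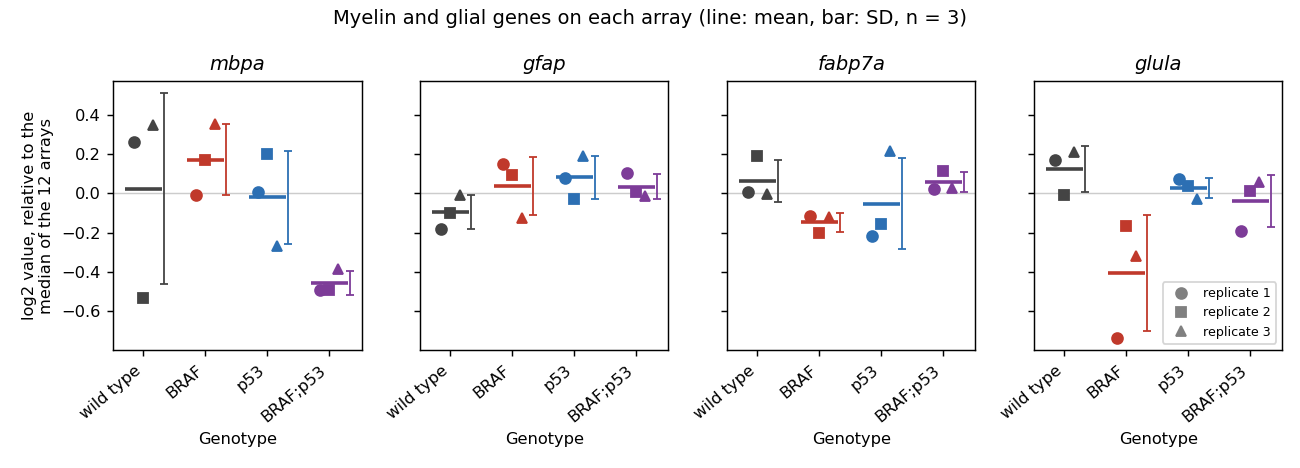
Log2 values of mbpa, gfap, fabp7a and glula (y axis, relative to the median of the 12 arrays) on each array, by genotype (x axis). Symbols mark replicates 1 to 3, lines the means and bars the SD (n = 3). BRAF;p53 arrays are low for mbpa (-0.49 to -0.39), BRAF arrays for glula (-0.74 to -0.17), and wild-type replicate 2 is the lowest mbpa array at -0.54.

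The glutamine synthetase gene glula was the gene that passed. Its log2 values were -0.74, -0.17 and -0.32 in BRAF embryos and 0.17, -0.01 and 0.21 in wild type. The p53 arrays read 0.07, 0.04 and -0.03, and the BRAF;p53 arrays -0.19, 0.01 and 0.06. The BRAF arrays lay below all wild-type and p53 arrays, with BRAF replicate 1, one of the arrays that stood apart, lowest. BRAF and BRAF;p53 overlapped.

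The mean of glula was 0.12 ± 0.12 in wild type, 0.03 ± 0.05 in p53, -0.04 ± 0.13 in BRAF;p53 and -0.41 ± 0.30 in BRAF (SD, n = 3). glula fell by 0.53 ± 0.14 on the log2 scale in BRAF against wild type (SE, limma adjusted p = 0.0445), a ratio of 0.692 with a 95% interval of 0.561 to 0.854. The call lay close to the threshold of 0.05. It held in 2 of 12 fits that left out 1 array, those without BRAF replicate 2 and without p53 replicate 3 (limma adjusted p = 0.0253 and 0.0482). Without any of the other arrays in turn the adjusted p was 0.0571 to 0.13. Without BRAF replicate 1 the difference was -0.37 (limma adjusted p = 0.0656), and -0.37 again without BRAF replicate 1 and p53 replicate 3 (limma adjusted p = 0.0559). With only the 6 arrays compared in the fit the limma adjusted p was 0.155, with p53 1a and 1b averaged 0.0604 and with array medians centred 0.0516, each of which ended the call.

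The other glula comparisons did not pass. BRAF differed from p53 by -0.43 ± 0.14 (limma adjusted p = 0.0865), and BRAF;p53 from BRAF by 0.37 ± 0.14 (limma adjusted p = 0.157). BRAF;p53 differed from wild type by -0.16 and p53 by -0.10 (limma adjusted p = 0.746 and 0.821). The interaction asks whether the transgene's difference is the same with and without p53 function, and for glula it was 0.46 ± 0.19 (limma adjusted p = 0.23). The glula difference in BRAF was thus not shown to depend on p53.

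glulb, a second glutamine synthetase gene, had 2 probe sets. In BRAF against wild type they differed by -0.57 ± 0.26 and -0.23 ± 0.13 (SE, limma adjusted p = 0.239 and 0.364). Neither passed and in both the arrays overlapped. Without BRAF replicate 1 and p53 replicate 3, a removal chosen after seeing the data, the former was -0.80 (limma adjusted p = 0.0499). In that fit 11.4% of all probe sets passed in BRAF against wild type.

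**Figure D2:**
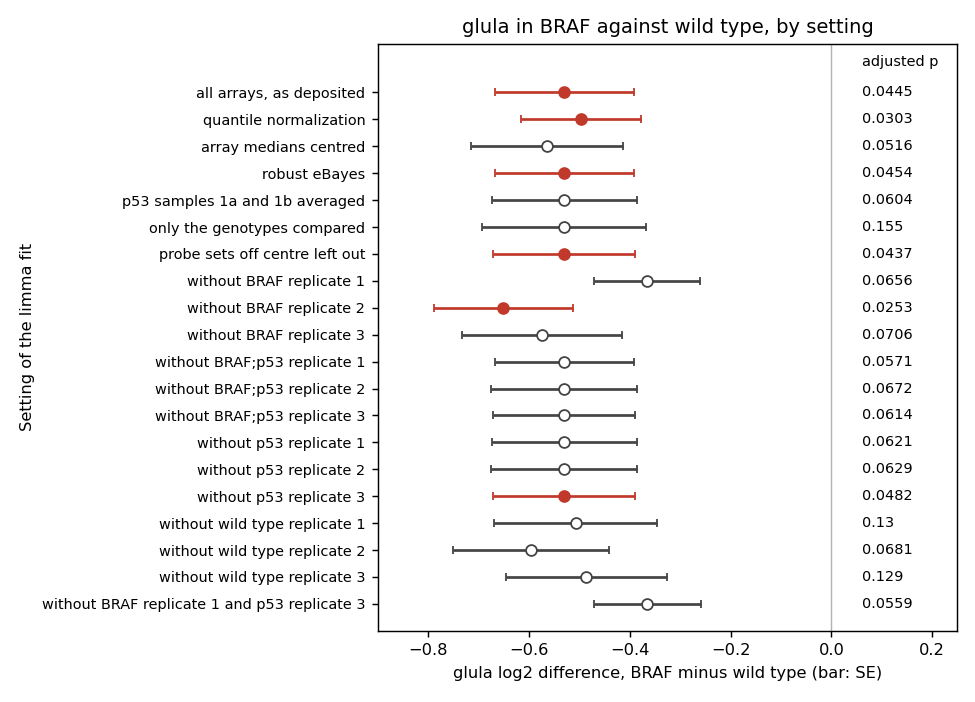
The glula log2 difference of BRAF minus wild type (x axis; bar: SE) under 20 settings of the limma fit (y axis), all those used except the replicate block, with its adjusted p at the right and filled points below 0.05. The 20 differences lie between -0.65 and -0.37, and 6 of the 20 points are filled.

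For fabp7a the BRAF arrays lay slightly apart from those of wild type and BRAF;p53 but not from those of p53, and no difference passed. Its log2 values were -0.12, -0.20 and -0.12 in BRAF, against 0.01, 0.19 and -0.01 in wild type and 0.02, 0.12 and 0.03 in BRAF;p53. The p53 arrays, at -0.22, -0.15 and 0.21, spanned both, with replicate 3 high. The BRAF arrays lay below all wild-type and all BRAF;p53 arrays.

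The fabp7a means were 0.06 ± 0.11 in wild type, 0.06 ± 0.05 in BRAF;p53, -0.05 ± 0.23 in p53 and -0.15 ± 0.05 in BRAF (SD, n = 3). BRAF differed from wild type by -0.21 ± 0.11 and BRAF;p53 from BRAF by 0.20 ± 0.11 (SE, limma adjusted p = 0.318 and 0.317). The 95% interval of the former, -0.46 to 0.04, bounds a fall at a ratio of 0.727. The interaction was 0.32 ± 0.16 (limma adjusted p = 0.311). Without BRAF replicate 1 and p53 replicate 3 it was 0.47 (limma adjusted p = 0.0461), with 1a and 1b as the only p53 arrays.

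gfap was the steadiest of the genes. Its log2 values were -0.18, -0.10 and -0.01 in wild type, 0.15, 0.09 and -0.13 in BRAF, 0.08, -0.03 and 0.19 in p53, and 0.11, 0.01 and -0.01 in BRAF;p53. Every genotype overlapped every other. The means were -0.10 ± 0.09, 0.04 ± 0.15, 0.08 ± 0.11 and 0.03 ± 0.06 in the same order (SD, n = 3). Differences from wild type were 0.13 ± 0.10 in BRAF, 0.18 ± 0.10 in p53 and 0.13 ± 0.10 in BRAF;p53 (SE, limma adjusted p = 0.462, 0.46 and 0.701). Their 95% intervals reached up to a ratio of 1.31, in p53, and down to 0.941, in BRAF;p53. BRAF;p53 differed from p53 by -0.05 and from BRAF by -0.005, and BRAF differed from p53 by -0.04 (limma adjusted p = 0.893, 0.982 and 0.816).

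**Figure D3:**
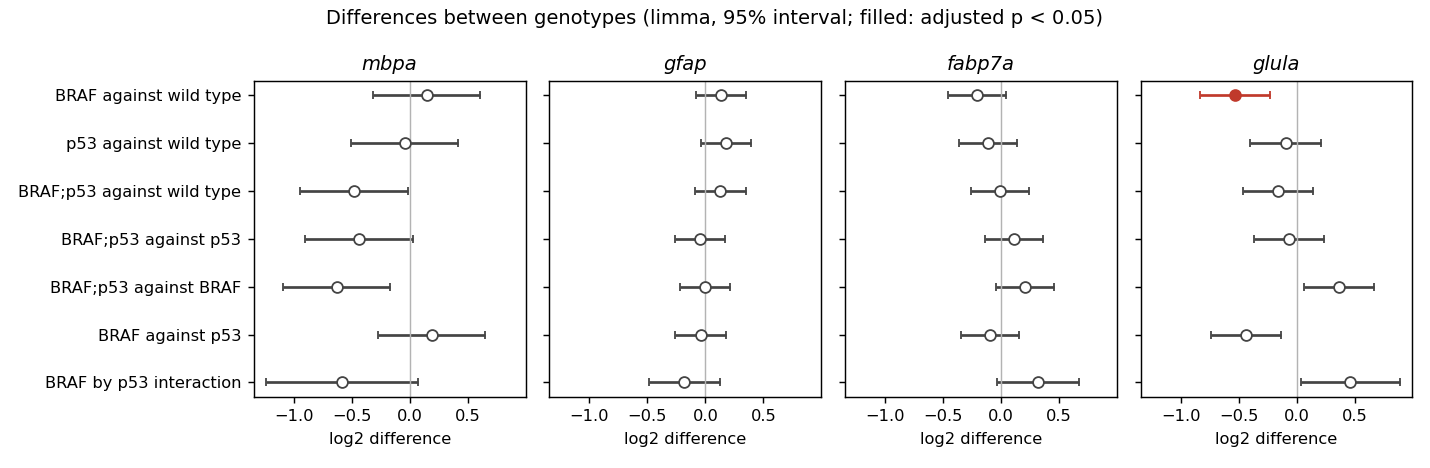
Log2 differences between genotypes (x axis) for mbpa, gfap, fabp7a and glula in the 6 pairwise comparisons and the interaction (y axis). Points are limma estimates with unadjusted 95% intervals, filled where the adjusted p is below 0.05. The single filled point is glula in BRAF against wild type, at -0.53.

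The counts of members passing were small and were read against all probe sets. In BRAF against wild type 1 of 4 passed, lower, where 6.41% of all 15502 probe sets passed, and 3.22% of all 15502 passed with a lower value. In p53 against wild type 0 of 4 passed (background 1.83%, limma, 0 at an unadjusted p under 0.05). In BRAF;p53 against wild type 0 of 4 passed (background 1.95%, limma, 1 at an unadjusted p under 0.05, mbpa). These 3 comparisons share the wild-type arrays.

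Among the other comparisons 0 of 4 passed. The background was 2.94% for BRAF;p53 against p53, 4.5% for BRAF;p53 against BRAF, 7.44% for BRAF against p53 and 3.21% for the interaction. At an unadjusted p under 0.05 by limma the counts were 0, 2, 1 and 1. Over all 28 differences of the 4 genes 1 passed, where the share over all probe sets was 1.83% to 7.44% by comparison. A single call thus does not set these genes apart from the rest. Arrays that did not overlap were common everywhere: 2 of 4 members in BRAF against wild type, where 28.4% of all probe sets did not overlap, and 2 of 4 in BRAF;p53 against BRAF, where 29.0% did not. It was 1 of 4 in BRAF;p53 against p53 (background 21.9%) and in BRAF against p53 (23.4%), and 0 of 4 in p53 and in BRAF;p53 against wild type (19.1% and 25.3%).

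The genes differed in how much they varied. The SD over the 12 arrays was 0.35 for mbpa, 0.26 for glula, 0.14 for fabp7a and 0.11 for gfap, against a median of 0.20 over all probe sets. Of all probe sets, 83.7% varied less than mbpa and 14.3% less than gfap. Differences between genotypes held 66.6% of the variance of glula, 50.0% of that of mbpa, 38.6% of that of fabp7a and 36.8% of that of gfap. With so few arrays per genotype, such a share is sizeable even where genotypes do not differ. No share over all probe sets is given for comparison, and the shares were not tested. They therefore describe the spread and do not show an effect of genotype.

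No pair of the 4 genes passed a test of correlation across arrays. Of 6 pairs, the strongest relation was between mbpa and fabp7a, which ran in opposite directions (Pearson r = -0.66, permutation p = 0.0245, adjusted over the 6 pairs 0.147, n = 12 arrays). Spearman's rho was -0.64 (permutation p = 0.0284). Without the 2 arrays farthest from the mbpa median r was -0.50, and for deviations from the genotype means it was -0.67. The r of the remaining pairs ran from -0.39 to 0.27, with adjusted permutation p of 0.627 to 0.962.

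Among 10795 probe sets with 1 symbol, those most like each gene over the 12 arrays were named by Pearson r, as a description. For mbpa they were ces2b, a carboxylesterase gene (0.94), cela1.6, an elastase gene of the exocrine pancreas (0.93), and glud1b, a glutamate dehydrogenase gene (0.92). cela1.6 was at -2.78 in wild-type replicate 2 and -2.84 in p53 replicate 3, and at -2.44 to -1.84 in BRAF;p53. Those are the 5 arrays on which mbpa was lowest. The part of digestive organ RNA in the mbpa values was not tested.

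For glula the closest were sgta (0.95), serbp1b (0.92) and a2m2h, an alpha-2-macroglobulin gene (0.92). All 3 were lowest on BRAF replicate 1. For fabp7a they were lmo2, a regulator of blood and vessel formation (0.94), tnnt3a, a fast muscle troponin gene (0.93), and tram2 (0.91). For gfap they were aebp1b (0.91), casd1 (0.82) and a gene known only by a clone-based name (0.82). None of these 12 genes is on the glial lists used here. Besides the members those lists held only 80 of the 10795 probe sets compared, so a count of 0 says little.

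**Figure D4:**
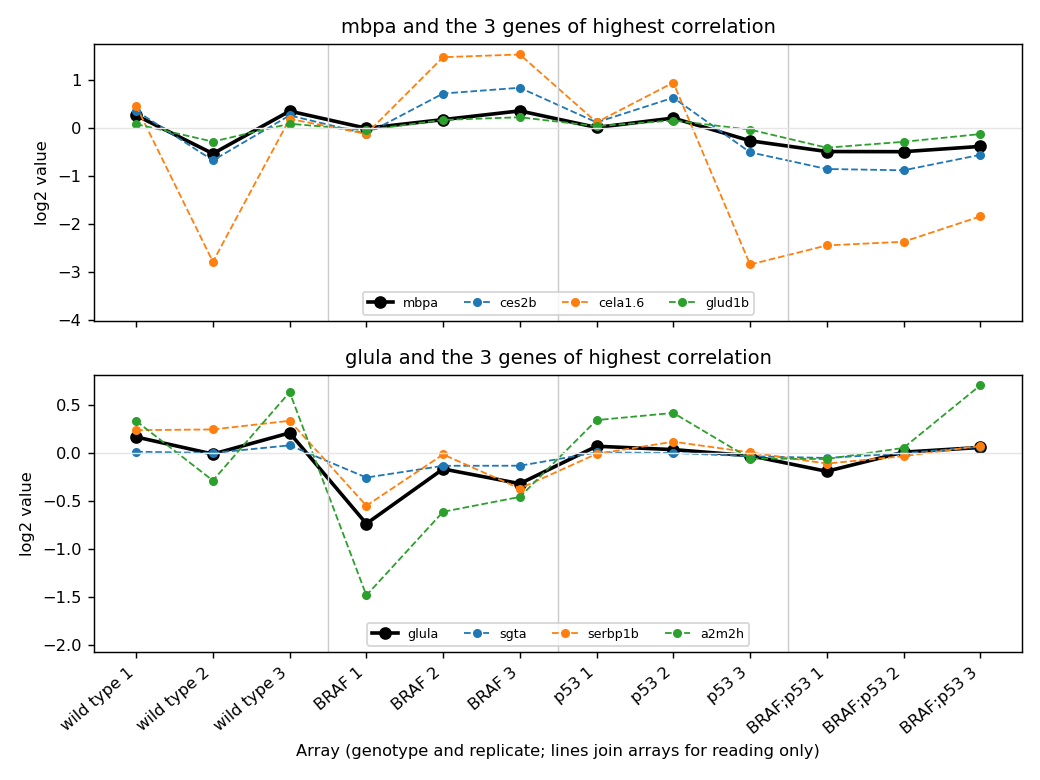
Log2 values (y axis) of mbpa and glula and of the 3 genes most like each, on the 12 arrays (x axis, lines for reading only). ces2b and cela1.6 dip with mbpa on wild-type replicate 2, p53 replicate 3 and the BRAF;p53 arrays, and all 3 genes are lowest with glula on BRAF replicate 1.

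The other genes of these tissues were read from 3 lists: myelin genes, genes of glial precursors and lineage, and genes of radial glia, astroglia and Müller glia. Besides the members they held 80 probe sets. In BRAF against wild type 0 rose and 2 fell, and in p53 and in BRAF;p53 against wild type 0 passed (limma; backgrounds as above). Of 13 further myelin probe sets 0 passed in any comparison with wild type. The myelin medians were -0.12 in BRAF, -0.09 in p53 and -0.02 in BRAF;p53, against 0.05, 0.001 and -0.01 over all probe sets.

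Within the myelin list, nipal4, a magnesium transporter family gene, was lower in BRAF;p53 than in p53 by -0.53 ± 0.12 (SE, limma adjusted p = 0.0344). That was 1 of 13 probe sets of the list (7.69%), where 2.94% of all probe sets passed in that comparison. The nipal4 values were -0.34, -0.41 and -0.11 in BRAF;p53 and 0.36, 0.18 and 0.19 in p53. These arrays did not overlap, as was so for 21.9% of all probe sets. The nipal4 call held in 6 of 12 fits without 1 array (limma adjusted p up to 0.149, without BRAF;p53 replicate 1). padi2, a peptidylarginine deiminase gene whose mammalian enzyme modifies myelin basic protein, differed from wild type in BRAF;p53 by 0.62 ± 0.14 (limma adjusted p = 0.0556). Its arrays of that genotype, at 0.47 to 0.59, lay above all others, the nearest being p53 replicate 3 at 0.44. Arrays of BRAF;p53 did not overlap those of wild type, p53 and BRAF for 25.3%, 21.9% and 29.0% of all probe sets, respectively. For the axon-glia contact gene cntn1b the difference of p53 from wild type was -0.38, and for pmp22b, a peripheral myelin gene, that of BRAF was -0.37 and -0.24 on its 2 probe sets (limma adjusted p = 0.147, 0.218 and 0.294).

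Of 26 probe sets of the glial lineage list 0 passed in any comparison, where 1.83% to 7.44% of all probe sets passed. With shares this low, a count of 0 of 26 does not show that the list was unchanged. The smallest p against wild type belonged to sox9b, a gliogenic transcription factor gene, in BRAF and p53, and to nfixb in BRAF;p53. sox9b had -0.83, -0.93 and -0.62 in BRAF, p53 and BRAF;p53 on 1 probe set (limma adjusted p = 0.151, 0.175 and 0.444). On the second probe set of sox9b the differences were -0.03, 0.05 and -0.05. nfixb had 0.37 in BRAF;p53 (limma adjusted p = 0.325). List medians against wild type were -0.04, -0.07 and -0.03 in BRAF, p53 and BRAF;p53.

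In the radial glia list 2 of 41 further probe sets (4.88%) fell in BRAF against wild type and 0 rose. Over all probe sets 6.41% passed in that comparison, and 3.22% passed with a lower value. rlbp1a, a retinaldehyde binding protein gene on that list, read 0.00, -0.19 and -0.27 in BRAF and 0.37, 0.64 and 0.21 in wild type. The cells that expressed rlbp1a in these embryos were not determined, so its values cannot be assigned to glia. It fell by 0.56 ± 0.13 (SE, limma adjusted p = 0.0304), and the call held in 7 of 12 fits without 1 array (limma adjusted p up to 0.117, without wild-type replicate 2). rlbp1a was at -0.44 in BRAF;p53 and -0.24 in p53 relative to wild type (limma adjusted p = 0.149 and 0.456).

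msi2b, a Musashi-family RNA-binding protein gene, fell by 1.33 ± 0.27 in BRAF against wild type on 1 of 2 probe sets (SE, limma adjusted p = 0.0139). That probe set read -2.28, -1.46 and -0.92 in BRAF and between -0.43 and 0.45 on all other arrays. The other msi2b probe set had -0.70 (limma adjusted p = 0.284), with BRAF replicate 1 lowest at -1.70. On the first of these probe sets BRAF;p53 was above BRAF by 1.88 ± 0.27, and BRAF differed from p53 by -1.67 (limma adjusted p = 0.00333 and 0.00425). On the other probe set these differences were 1.19 and -0.62 and did not pass (limma adjusted p = 0.0819 and 0.318). Without wild-type replicate 3 the difference of BRAF from wild type on the first probe set had a limma adjusted p of 0.0567.

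A further 3 genes of the list passed in comparisons that did not involve wild type. In each of BRAF;p53 against p53, BRAF;p53 against BRAF and BRAF against p53, 4.88% of the list's probe sets passed, counting msi2b where it passed. The shares over all probe sets were 2.94%, 4.5% and 7.44%. id1, a target of BMP signalling, was higher in BRAF;p53 than in p53 by 0.51 and in BRAF than in p53 by 0.44 (limma adjusted p = 0.0299 and 0.0336). notch3 was higher in BRAF;p53 than in p53 by 1.18 (limma adjusted p = 0.0497). apoeb, an apolipoprotein gene also expressed in microglia, differed between BRAF;p53 and BRAF by -0.52, with the lower level in the former (limma adjusted p = 0.0259). In fits without 1 array id1 held in 8 and 6 of 12, notch3 in 3 and apoeb in 8. The highest adjusted p by limma came without BRAF;p53 replicate 1, at 0.141 for id1 against p53, 0.196 for notch3 and 0.0763 for apoeb. For id1 in BRAF against p53 it was 0.102, without BRAF replicate 2. The Notch target her4.2 had -0.68 and -0.82 in p53 against wild type on its 2 probe sets (limma adjusted p = 0.129 and 0.0782), and probes of near-identical her4 copies may share signal.

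Without BRAF replicate 1 and p53 replicate 3, 2 arrays remained for each of these genotypes, and both the calls in the glial lists and those over all probe sets changed. The p53 arrays kept were 1a and 1b, whose origin may be common, so the spread in this fit may be too small. Its calls are therefore no firmer than those with all arrays. Whether p53 replicate 3 or the arrays kept stand better for that genotype was not tested. In BRAF against wild type 4 of the 80 probe sets passed, all lower, where 11.4% of all probe sets did: those of glulb, msi2b, rlbp1a and the oligodendrocyte lineage gene olig2. In p53 against wild type 0 of 80 passed (limma, background 4.44%), and in BRAF;p53 against wild type 4 did (background 5.91%), padi2, sox9b, cav1 and rlbp1a. In BRAF;p53 against p53 7 were higher and 3 lower (background 7.92%), of cldnk, nipal4, padi2, pmp22b, cav1, id1, mdka and ptgdsb.2. The count was 2 in BRAF;p53 against BRAF (padi2 and msi2b, background 7.5%), 1 in BRAF against p53 (msi2b, background 7.79%) and 7 in the interaction (background 9.48%), of pmp22b, pou3f1, sox10, msi2b, sox2 and sox3. The calls of apoeb, of notch3 and of id1 in BRAF against p53 were lost (limma adjusted p = 0.0517, 0.0737 and 0.0572). Genes first named in this paragraph were named after their values were seen.

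**Figure D5:**
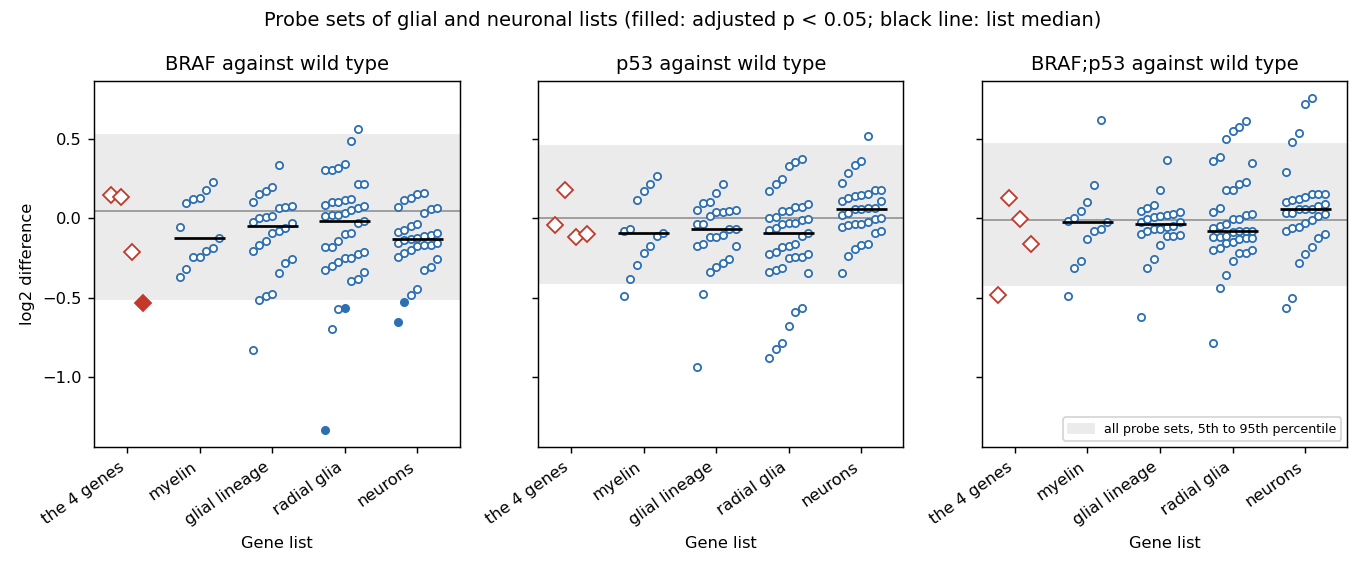
Log2 differences from wild type (y axis) of the 4 genes (diamonds) and of every other probe set of the myelin, glial lineage, radial glia and neuron lists (circles), in BRAF, p53 and BRAF;p53 (panels). Filled symbols passed at an adjusted p below 0.05, black lines are list medians, and the grey band spans the 5th to 95th percentile of all probe sets. Filled symbols occur in BRAF only.

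Markers of other cell types were read beside the glula result. In BRAF against wild type 25 of 33 neuron probe sets, which covered 21 genes, were below 0, with a median of -0.13. No share of all probe sets below 0 is given for comparison. Of the 33, 2 fell: tubb2 by 0.53 and zc4h2 by 0.65 (limma adjusted p = 0.04 and 0.0238). With 1 array left out, the tubb2 call held in 2 of 12 fits (limma adjusted p up to 0.131, without wild-type replicate 1) and the zc4h2 call in 8 of 12 (up to 0.0989, without wild-type replicate 2). The 2 calls are 6.06% of the neuron probe sets, near the 6.41% of all probe sets. The mean of the neuron list was -0.29 to -0.08 on BRAF arrays and -0.12 to 0.04 on wild-type arrays, which overlap. Photoreceptor probe sets had a median of 0.17, leukocytes 0.11, skeletal muscle -0.01 and neural crest -0.09, where that of all probe sets was 0.05. In these 4 lists, 2 probe sets rose and 5 fell among 95, again near the background. For BRAF;p53 against wild type the medians of all 5 lists lay between -0.05 and 0.06, and for p53 between -0.12 and 0.06. Their part in the glula difference was not tested.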

How the data were processed

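Total RNA of whole embryos was measured on 12 one-colour Affymetrix zebrafish arrays, 3 for each of 4 genotypes. The deposited values were produced by the authors with GCRMA, per the submitters' processing notes, and are on a log2 scale. Scale and centring were inferred from the values: the linear median over the 12 arrays was 1 for 13937 of 15617 probe sets (tolerance 0.0001), and 1680 lay below it. Scanner intensities were not used here, so background and detection could not be judged. No further normalization was applied, and 115 control probe sets were left out.

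The 15502 remaining probe sets were fitted together with limma 3.58.1 in R 4.3.3 (lmFit and eBayes, 4 genotype means), with Benjamini-Hochberg adjustment over all of them and a threshold of 0.05. The fit was also tried on simulated data with independent normal noise and changes in BRAF;p53 alone. Those data held no arrays that stood apart and no shared sources, so the trial does not bear on the calls reported here. Symbols came from the platform annotation: 10795 probe sets had 1 symbol, 135 several and 4572 none. Each probe set was kept apart. Correlations among the 4 genes used permutation tests. The members and the gene lists (myelin, glial lineage, radial glia, neurons, photoreceptors, neural crest, skeletal muscle and leukocytes) were chosen with earlier results of these data known. Named were the members, genes of the 3 glial lists that passed or, in a list and comparison with wild type where none did, the gene with the smallest p, and the 3 probe sets most like each member. Other lists are given by counts, with the neuron genes that passed in BRAF against wild type named. Alternatives were quantile normalization, centred array medians, robust eBayes, a replicate block, averaging p53 1a and 1b, fitting only the genotypes compared, leaving out probe sets off centre and leaving out each array. Leaving out BRAF replicate 1 and p53 replicate 3 together was chosen after seeing the data. Any fit without p53 replicate 3 keeps only 1a and 1b of that genotype, so its spread may be too small. The labels do not say whether replicate numbers pair the samples, and the samples were not paired in the main fit. Of 18 pairs of same-numbered arrays, 7 correlated above 0.1 in their deviations from the genotype means, which does not settle it. No sequences are shown.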

Additional observations from a re-analysis of the deposited data

How the results depend on the processing

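For the 28 differences of the 4 genes, 206 of 220 values under other settings and 307 of 336 with 1 array left out kept their direction and side of the threshold. Much of this was fixed in advance, so the counts do not measure stability. A pairwise difference cannot change when an array of a genotype not compared is left out. Robust eBayes, the replicate block, fitting only the compared genotypes and leaving out probe sets off centre also leave it as it was. All but 1 of the 28 differences did not pass with all arrays as deposited. The count of genes passing in BRAF against wild type was 0 in place of 1 with array medians centred, with the replicate block, with p53 1a and 1b averaged, with only the compared genotypes and without BRAF replicate 1 and p53 replicate 3, and 0 to 1 with 1 array left out. It was 1 in place of 0 for BRAF;p53 against BRAF with only the compared genotypes and for the interaction without those 2 arrays, and 0 to 1 with 1 array left out for BRAF;p53 against wild type, BRAF;p53 against BRAF and BRAF against p53. The cause of these changes was not tested. The replicate block gave glula a limma adjusted p of 0.0528 in BRAF against wild type. In 14 of 36 cases, each an array set against the 3 arrays of another genotype, the shared number correlated best. That does not settle whether the numbers pair the samples. Directions turned for small differences that never passed. Without those 2 arrays gfap was 0.0077 in BRAF;p53 against p53 and 0.051 against BRAF, fabp7a 0.023 in BRAF against p53 and mbpa 0.082 in p53 against wild type. For gfap in BRAF;p53 against BRAF quantile normalization gave 0.042 and centred medians 0.031, and for fabp7a in BRAF;p53 against wild type quantile normalization gave 0.018. With 1 array left out, gfap ran from -0.10 to 0.0077 in BRAF;p53 against p53, -0.088 to 0.051 against BRAF and, in BRAF against p53, -0.098 to 0.041. fabp7a ran from -0.040 to 0.056 in BRAF;p53 against wild type and -0.18 to 0.038 in BRAF against p53, glula from -0.12 to 0.0073 in BRAF;p53 against p53, and mbpa from -0.13 to 0.31 in BRAF and -0.32 to 0.12 in p53 against wild type. Over all probe sets, the count passing in BRAF against wild type was 993 and ran from 595 (without wild-type replicate 2) to 1766 (without the 2 arrays). It ran from 105 to 688 around 284 in p53 and from 162 to 916 around 302 in BRAF;p53 against wild type, 179 to 1227 around 456 in BRAF;p53 against p53, 302 to 1162 around 698 against BRAF, 342 to 1218 around 1153 in BRAF against p53, and 284 to 1469 around 497 for the interaction. Array number limits the precision, and signal over background is unknown.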
